A study of Mus musculus with 20 samples.

Results

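The response to 7 Gy of X-rays in blood of the mice labelled WT was measured on 10 of the 20 arrays of the series, chosen by their titles: the 5 arrays of irradiated mice and the 5 arrays of sham-irradiated mice. All 10 animals were young adult male littermates on a C57BL/6 background, irradiated over the whole body or handled in the same way with the source off. Blood was drawn by cardiac puncture 24 h later into a lysing RNA preservative and globin RNA was removed before labelling. The remaining 10 arrays are of Il10-/- mice, which lack the anti-inflammatory cytokine interleukin 10, under the same 2 doses. They enter the scaling and the filters, the check of the Il10 probe, 1 alternative fit and the test of whether dose acted differently in the 2 genotypes, but not the fit that gives the values below. Each array stands for 1 mouse. Values are log2 fluorescence signals scaled between arrays, and a difference is the mean at 7 Gy minus the mean at 0 Gy.

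Ionizing radiation breaks DNA and stabilises p53, a transcription factor whose targets stop the cell cycle, repair DNA or start apoptosis. Among circulating cells, B lymphocytes are known as the most radiosensitive, T cells are less so, and granulocytes, platelets and red cells depend on precursors in the marrow. Interferons are antiviral cytokines that switch on a further set of genes, and damaged tissue is one of their known sources. In whole blood, fewer cells of a type and less RNA per cell cannot be told apart. Equal amounts of RNA were labelled and the arrays were scaled to each other, so signals are relative. A rise can therefore reflect in part a loss of other RNA, which was not tested.

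Markers of the labelled tissue were well above background on all 10 arrays. They were genes of red cells (Slc4a1), neutrophils (S100a8), B cells (Ms4a1), T cells (Cd3e), monocytes (Csf1r) and platelets (Pf4). Genes of liver and heart were also high on irradiated replicates 1 and 2, where Alb read 16.96 and 17.17 and Myh6 14.98 and 14.86. The Il10 probe gave a signal well above background on no array labelled WT (0 of 10) and on each one labelled Il10-/- (10 of 10). That is the reverse of what a marker of the intact gene would give. Whether the probe lies outside the deleted part or the genotype labels are crossed was not tested, so "mice labelled WT" is used throughout. Apart from the test between genotypes, no dose difference below rests on those labels, though the genotype given for the animals does. Replicate 5 at 0 Gy was the weakest array, with 29.9% of its spots well above background against 38.5% to 55.5% on the other 9. Its repeated spots of 1 probe spread by an SD of 0.336, against 0.0829 to 0.143. Replicate 4 at 0 Gy stood apart through high red-cell genes and low genes of several leukocyte types. Its T-cell mean, 8.11, lay within the 7.85 to 8.68 of the others of its group, and Cd3e was highest there. It differed from replicates 1, 2 and 3 by a robust SD of 1.14 to 1.26 over probes, against 0.67 to 0.74 for the weak array. At 7 Gy replicates 1 and 2 differed from 3, 4 and 5 by a robust SD of 0.67 to 0.85. Replicate 3 lay nearer to 4 and 5, at 0.33 and 0.47. The mean of liver genes, described last, was 15.03, 15.00, 12.23, 5.94 and 9.01 on irradiated replicates 1 to 5. Replicates 1 and 2 resembled each other most within each dose. They were counted as separate animals, as labelled. Their spread exceeded that of repeated spots on an array, which cannot tell 2 animals from 2 hybridisations of 1 RNA. With each pair averaged into 1 value 850 features were called, against 1832. The share of spots well above background did not differ detectably between the doses (43.9% ± 9.78 at 0 Gy and 49.8% ± 5.88 at 7 Gy, SD, n = 5 each, two-sided exact permutation p = 0.294, the smallest possible being 0.00794).

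In limma, 1832 of 16498 features, 11.1%, were called at an unadjusted p below 0.001 with a false discovery rate under 10%. They represent 1601 genes, of which 987 rose and 616 fell, 2 of them by different probes in both directions. By feature, 1115 rose and 717 fell, or 6.76% and 4.35% of those tested. The median size of a called rise was 1.80 and of a called fall -1.94, and 801 called features differed by at least 2, which is 4-fold. For 1802 called features every array of 1 dose lay above every array of the other, as did 23.3% of all features tested (14.8% higher and 8.5% lower at 7 Gy). Without the weak array 1652 features were called, 986 higher and 666 lower, and 1461 of the 1832 kept their call and direction. Leaving out irradiated replicate 1 or 2 gave 1198 or 1178 calls, and leaving out both gave 904. Without unirradiated replicate 3 the rises numbered 730. The split of calls moved with scaling: 795 higher and 761 lower with each array centred on its 75th percentile, which shifts the median of all features from -0.07 to -0.28, and 705 and 693 after quantile normalization. With normexp background correction 285 rose and 419 fell of only 4255 features tested.

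Genes were described through 28 lists of known pathways and cell types, each gene by its brightest probe. Over all 12680 genes tested in this way 922 rose, 7.27%, and 565 fell, 4.46%. The median difference over the 17593 genes past the background filter was -0.03. The plot of list members sets every measured gene beside that median.

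**Figure D1:**
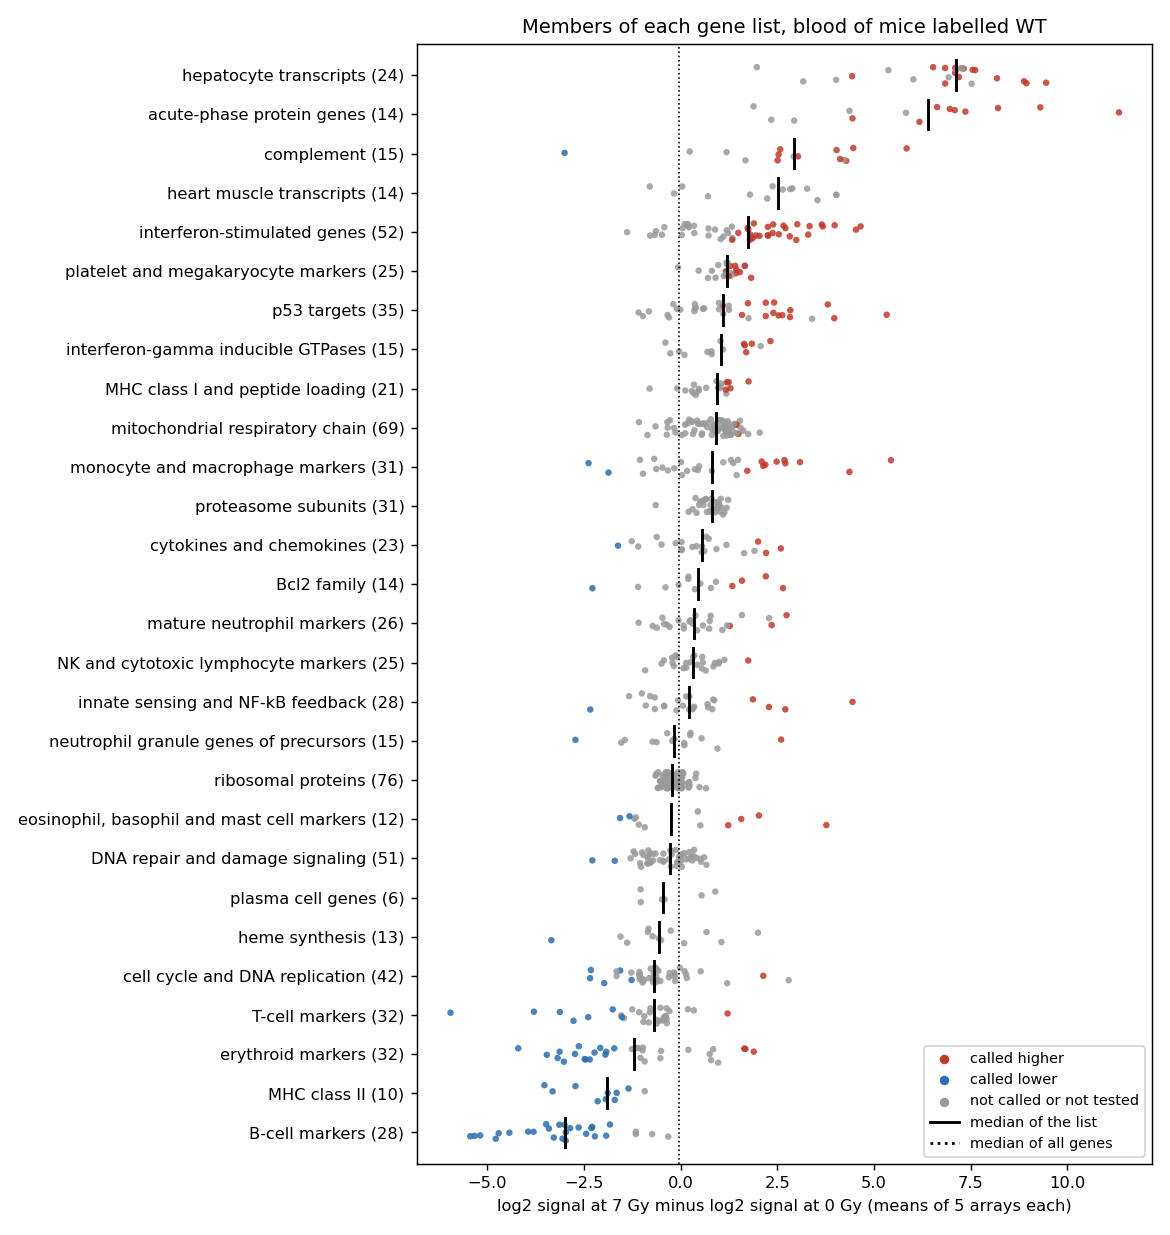
Each point is 1 gene of a list, placed by its log2 signal at 7 Gy minus that at 0 Gy, the difference of means over 5 arrays each. Red and blue points were called higher or lower, grey points were not called or not tested, black bars are list medians and the number of genes plotted follows each name. B-cell markers lie furthest to the left with a median of -2.99, and hepatocyte and acute-phase genes furthest to the right, where single arrays differ widely.

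Targets of p53 rose. Of 40 listed genes on the array 35 passed the background filter and 29 were tested, and 14 rose, 0 fell and 15 were not called. The list median was 1.10. The rises were led by Cdkn1a, which encodes the cyclin-dependent kinase inhibitor p21, and by Phlda3, which encodes an inhibitor of Akt.

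Cdkn1a (probe at chr17:29237377-29237436, mm9) read 5.18, 5.39, 4.3, 3.57 and 3.97 on unirradiated replicates 1 to 5 and 9.51, 9.54, 9.24, 9.87 and 10.90 on the irradiated ones. Every irradiated array lies far above every unirradiated one, with the highest value in replicate 5. The difference was 5.33 ± 0.43 (SE), or 40.2-fold, with a limma adjusted p of 4.6e-05. Phlda3 (chr1:137665642-137665701, mm9) read 7.37, 7.34, 6.98, 6.97 and 6.87 at 0 Gy and 10.93, 10.88, 11.03, 11.04 and 11.52 at 7 Gy. Its values were among the tightest of any gene described here, and it rose by 3.97 ± 0.25, 15.7-fold (adjusted p = 7.2e-06).

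The other called targets cover several arms of the p53 response. Bax (2.2) and Bbc3 (1.59) encode proapoptotic members of the Bcl2 family, Tnfrsf10b (2.2) a death receptor, and Aen (2.40) a nuclease of apoptotic cells. Mdm2, the ubiquitin ligase that degrades p53 itself, rose by 1.09, a call lost without the weak array and with the slide as a block. Ccng1 (2.42), Zmat3 (1.74), Psrc1 (2.63), Ei24 (2.83), Rps27l (2.53) and Dcxr (3.81) also rose. Plk2, which encodes a polo-like kinase, was not well above background on any unirradiated array and was at least 2.55-fold higher. Members with no call included Gadd45a at -1.09, the nucleotide excision repair gene Ddb2 at -0.82, the death receptor gene Fas at 0.99 and Perp at 3.40. The list had 14 calls without the weak array, 12 without irradiated replicates 1 and 2, and 11 without replicates 1, 2 and 3.

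Genes switched on by type I interferon rose. Of 54 on the array 52 passed the background filter and 43 were tested. Of these 29 rose, 0 fell and 14 were not called, with a list median of 1.74. The largest rises were in the Ifit and Oas families, whose proteins bind viral RNA or make the messenger that activates RNase L, and in Bst2, which encodes tetherin, a protein that holds budding viruses on the cell.

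The promoters of these genes are known for the interferon-stimulated response element, whose core is a pair of GAAA blocks with any 2 bases between them, or of TTTC blocks on the other strand. The windows below are shown because they belong to the largest rises on the list that hold this core before the transcription start. They are RefSeq promoter sequence in build GRCm38.p6, read 5′ to 3′ towards the gene, and the capitals mark the GAAA or TTTC blocks.
Ifit3b: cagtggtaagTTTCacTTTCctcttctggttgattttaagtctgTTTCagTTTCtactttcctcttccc
Ifit3: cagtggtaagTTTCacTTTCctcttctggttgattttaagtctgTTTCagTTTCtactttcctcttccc
Bst2: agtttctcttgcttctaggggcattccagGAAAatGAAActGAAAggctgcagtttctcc
Oas1a: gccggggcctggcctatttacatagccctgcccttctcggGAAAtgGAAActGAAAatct
Ifit1: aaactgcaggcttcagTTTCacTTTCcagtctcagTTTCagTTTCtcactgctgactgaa
Phf11b: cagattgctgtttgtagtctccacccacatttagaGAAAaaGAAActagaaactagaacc

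They lie at chr19:34607759-34607827 (Ifit3b, plus strand), chr19:34583363-34583431 (Ifit3, plus strand), chr8:71537572-71537631 (Bst2, minus strand), chr5:120907526-120907585 (Oas1a, minus strand), chr19:34640769-34640828 (Ifit1, plus strand) and chr14:59341356-59341415 (Phf11b, minus strand). The windows of Ifit3 and Ifit3b have the same letters, since these neighbouring genes are close copies, and signal of 1 could reach the probe of the other. In Bst2 and Oas1a a pair of cores overlap in a run of 3 GAAA repeats, and Ifit1 has 2 separate cores. RefSeq windows of 300 bases, most of them before the start, were found for 41 listed genes, and 20 of them, 48.8%, held the core on either strand, against 3.99% of all 27025 genes with a window. Among the listed genes called higher 9 of 20 with a window held it, and among those tested and not called 8 of 11. For the p53 half-site the same count gave 14 of 31 listed targets, 45.2%, against 9.55% of all genes. A match describes letters in a window, not binding.

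Ifit3 (probe at chr19:34663105-34663164, mm9) read 6.48, 6.55, 6.14, 5.14 and 5.41 at 0 Gy and 10.24, 10.39, 11.23, 10.34 and 10.19 at 7 Gy. The groups stand clear of each other, and irradiated replicate 3 is the highest. The rise was 4.53 ± 0.36, 23.2-fold (limma, adjusted p = 4.2e-05). Ifit3b rose by 4.65 ± 0.35 (adjusted p = 3.6e-05) from a level that only 2 unirradiated arrays had well above background. Bst2 read 8.45, 8.56, 8.28, 7.02 and 7.34 at 0 Gy and 11.93, 12.07, 11.77, 11.54 and 12.26 at 7 Gy, a rise of 3.98 ± 0.35. In this gene the 2 lowest values are unirradiated replicates 4 and 5.

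Oas1a, which encodes an oligoadenylate synthetase, read 9.29, 9.14, 8.90, 7.58 and 8.47 at 0 Gy and 11.96, 11.97, 12.41, 12.28 and 13.14 at 7 Gy. It rose by 3.68 ± 0.38 (adjusted p = 2.0e-04), and its relative Oas1f, named for its test value and not listed, by 3.13 ± 0.28. Other rises were Ifi44 (3.65), Ifi27l2a (3.34), Phf11d (3.30), Rtp4 (3.02), Lgals3bp (2.99), Mx1 (2.82), Oasl1 (2.71), Zbp1 (2.66), Ifit1 (2.39), Usp18 (2.38) and the transcription factor Irf7 (1.80), whose call was lost without the weak array and with the slide as a block. Several well-known members were not called: Isg15 at -0.42, Rsad2 at -1.38, Oas3 at -0.79 and Stat2 at 1.19. The list had 26 rises without irradiated replicates 1 and 2, 20 without replicates 1, 2 and 3, and 25 with the slide as a block. Without the weak array it had 27 rises and 1 fall, Rsad2.

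Guanylate-binding proteins and immunity-related GTPases, which interferon gamma induces and which attack vacuoles of pathogens, gave some rises. Of 13 tested 5 rose and 0 fell, with a median of 1.03 over 15 measured genes. Gbp2 read 7.60, 7.55, 7.58, 6.60 and 5.72 at 0 Gy and 8.94, 9.16, 9.62, 9.11 and 9.83 at 7 Gy, a rise of 2.32 ± 0.40 (limma, adjusted p = 0.0024). Igtp read 10.06, 10.10, 10.06, 9.86 and 9.51 against 11.13, 11.18, 11.81, 11.92 and 11.85, a rise of 1.66 ± 0.28. Both genes were lowest on the weak array, and both rises were called without it. Gbp3 (1.84), Irgm2 (1.70) and Irgm1 (1.64) rose, while Iigp1, at 2.07, and Gbp4, at -0.39, were not called. Without irradiated replicates 1, 2 and 3 Igtp alone, 1 of 13, was called.

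Genes of MHC class I presentation, which displays peptides of the cell's own proteins, gave 5 rises and 0 falls of 13 tested, with a median of 0.93. B2m, the invariant light chain, read 13.64, 13.72, 13.41, 13.37 and 13.20 at 0 Gy and 14.54, 14.58, 14.69, 15.05 and 14.90 at 7 Gy, a rise of 1.29 ± 0.24. The others were H2-T23 (1.17), H2-T24 (1.24), and the chaperones Calr (1.19) and Pdia3 (1.76). The peptide transporter gene Tap1 was at 0.39 and H2-D1 at 0.97, both without a call. These calls were fragile: without the weak array only B2m was called, and with the slide as a block 0 of 13.

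**Figure D2:**
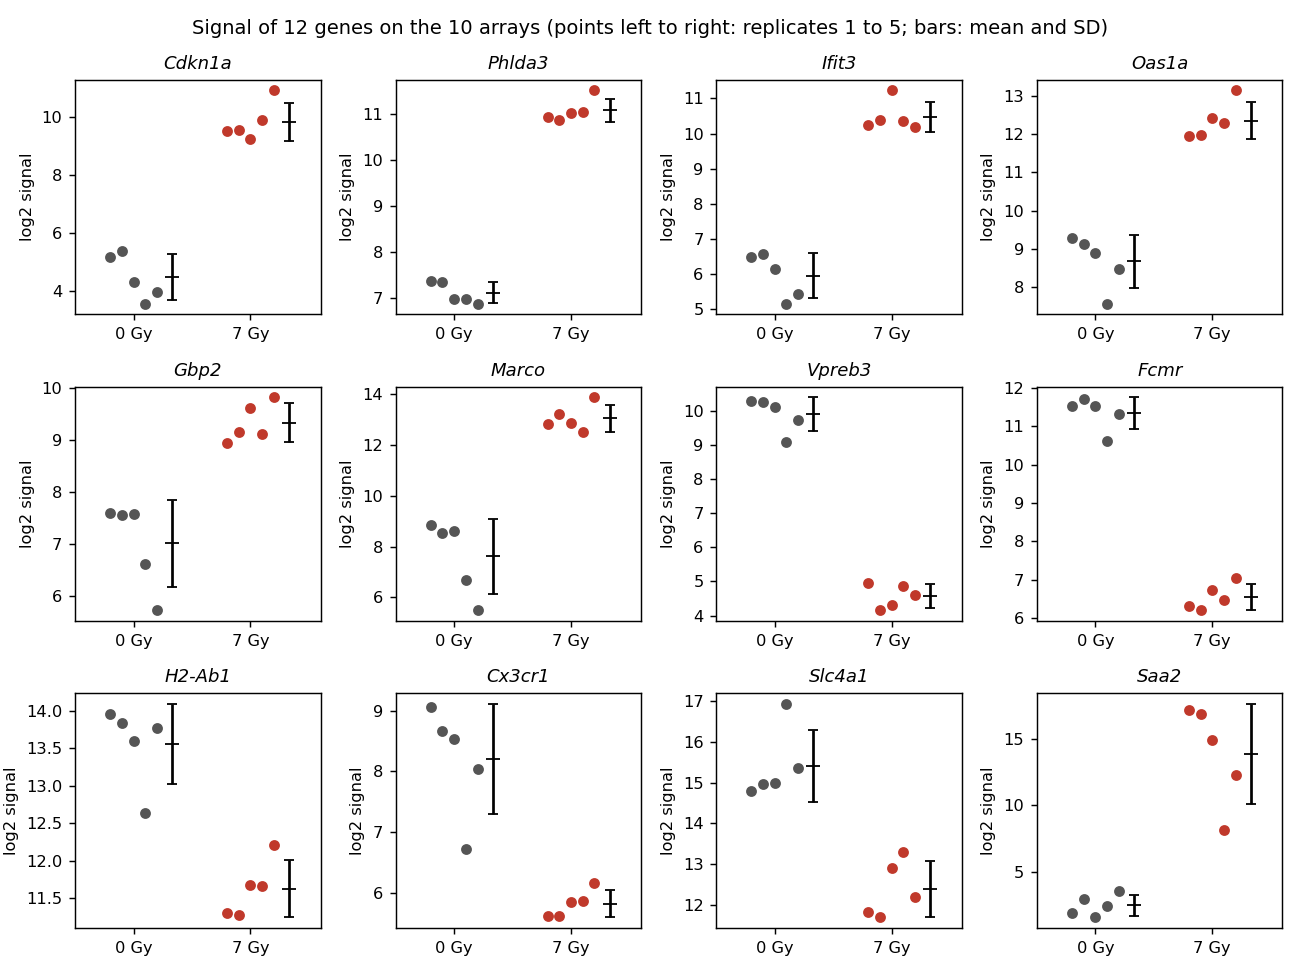
Log2 signal of 12 genes on each of the 10 arrays, unirradiated in grey and irradiated in red, with points from left to right for replicates 1 to 5 and bars for mean and SD of 5. The groups do not overlap in any panel. The values of Saa2 at 7 Gy run from 8.17 to 17.12, while those of Phlda3 run from 10.88 to 11.52.

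The falls were led by B cells. Of 30 B-cell markers on the array 28 passed the background filter and 27 were tested. Of these 24 fell and 0 rose, and the median difference was -2.99, an 8-fold lower signal. The falls numbered 22 to 24 without the weak array, without unirradiated replicates 4 and 5, without irradiated replicates 1 and 2 or 1, 2 and 3, and with the slide as a block, all of them among the 24. Mean B-cell signal per array was 8.41 to 9.31 at 0 Gy and 5.62 to 6.18 at 7 Gy.

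Vpreb3, a chaperone of the B-cell receptor (chr10:75412326-75412385, mm9), read 10.30, 10.27, 10.10, 9.10 and 9.73 at 0 Gy and 4.94, 4.15, 4.3, 4.86 and 4.60 at 7 Gy. It fell by 5.33 ± 0.31, 40.1-fold, to values near background (limma, adjusted p = 7.2e-06). Fcmr, the receptor for the constant part of IgM (chr1:132777256-132777315, mm9), read 11.52, 11.69, 11.51, 10.62 and 11.32 against 6.32, 6.20, 6.74, 6.47 and 7.04, a fall of 4.78 ± 0.29. In both genes unirradiated replicate 4 was lowest of its group and still far above every irradiated array.

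The chemokine receptor gene Ccr6 fell by 5.44 ± 0.34, from 8.09 to 8.93 on the unirradiated arrays to 2.17 to 3.79, with 1 of 5 irradiated arrays well above background. Fcer2a, which encodes CD23, fell by 5.18 ± 0.42 and Tnfrsf13c, the receptor for the survival factor BAFF, by 4.70 ± 0.34. Bcl11a, a transcription factor of B-lineage development, fell by 4.43 ± 0.34, and the inhibitory receptor gene Btla by 3.48 ± 0.29. Transcription factors of B-cell identity followed, with Ebf1 at -3.94, Spib at -3.28 and Pou2af1 at -2.97, while Pax5, at -1.16, was not called. Of the antigen-receptor complex Cd79b was at -3.13 and Cd79a at -2.97, the latter by a probe that the array file places on chromosome 12 through a cDNA clone. The surface genes Ms4a1, which encodes CD20 (-3.00), Cr2 (-2.64), Cxcr5 (-2.85) and Cd22 (-1.92) fell too. Cd37, at -0.74, and Cnr2, at -1.16, were the other uncalled members tested.

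Ms4a1 read 11.52, 11.33, 11.02, 9.94 and 10.32 at 0 Gy and 7.51, 7.66, 8.18, 7.69 and 8.09 at 7 Gy. The irradiated arrays remained well above background for this gene, as they did for Fcmr and Btla. Genes of antibody-secreting plasma cells, the end stage of the lineage, had no call as tested, 0 of 5. Jchain was at -0.48, Mzb1 at -1.03 and the median at -0.45. These values depended on the low unirradiated arrays. Without unirradiated replicates 4 and 5 Mzb1 was called lower, at -1.44, and Jchain was at -1.06 without a call. The plasma-cell median was then -0.997, and that of B-cell markers -3.30. Whether plasma-cell genes fell less than B-cell markers was not tested.

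MHC class II genes, which present antigen on B cells, monocytes and dendritic cells, fell in 9 of 10 tested, with 0 rises and a median of -1.91. H2-Ob, a regulator of peptide loading used mainly in B cells, fell by 3.52 by its brighter probe and 4.44 by another. The dimmer probe read 9.47, 9.34, 9.29, 8.37 and 8.99 at 0 Gy and 4.55, 4.51, 4.80, 4.82 and 4.58 at 7 Gy. H2-Ab1, a chain of the classical molecule I-A, read 13.96, 13.84, 13.60, 12.64 and 13.77 against 11.31, 11.27, 11.68, 11.66 and 12.21, a fall of 1.93 ± 0.32. Cd74, the invariant chain, fell by 2.14, H2-DMb2 by 3.31, H2-Oa by 2.72 and the master regulator gene Ciita by 1.65. H2-DMa, at -0.93, was not called. With the slide as a block 7 of 10 were called, H2-Oa not among them. Without irradiated replicates 1 and 2 the calls fell to 3 of 10 and without replicates 1, 2 and 3 to 2, with medians of -1.72 and -1.69, and without unirradiated replicates 4 and 5 they numbered 10.

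T-cell markers were divided. Of 26 tested 7 fell, 1 rose and 18 were not called, with a median of -0.70 over 32 measured genes. The falls included several genes known from naive T cells. Dapl1 read 8.73, 8.62, 8.70, 8.29 and 8.01 at 0 Gy and 2.94, 1.63, 3.26, 2.45 and 2.33 at 7 Gy, where 0 of 5 arrays were well above background. The fitted fall was 5.95 ± 0.34 and the signal was at least 31.9-fold lower (limma, adjusted p = 7.2e-06). Ccr7, the lymph-node homing receptor, fell by 3.79, and the transcription factor genes Tcf7, Lef1 and Satb1 by 2.77, 2.39 and 1.52. Cd8a fell by 3.12, but its partner chain Cd8b1, at -0.52, was not called, nor were the receptor components Cd3d (-0.36) and Cd3g (-0.38). Cd3e varied too little for the filter and was at -0.56. Il7r, the receptor for the survival cytokine interleukin 7, was at -1.54 with an adjusted p of 0.010, just short of the call, and was called with the slide as a block. The single rise, Cd247 at 1.22, kept its call with only 1 of the 10 arrays left out, irradiated replicate 1, and lost it with the slide as a block.

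Natural killer and cytotoxic genes gave a single call. Of 23 tested 1 rose and 0 fell, with a median of 0.32. Gzmb, which encodes granzyme B, read 7.37, 7.5, 7.79, 6.76 and 6.97 at 0 Gy and 7.95, 9.04, 9.35, 9.75 and 9.05 at 7 Gy, a rise of 1.75 ± 0.36. That call was lost without the weak array and with the slide as a block. Gzma was at 0.88, and the activating receptor gene Ncr1 at 0.25, both without a call.

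Monocyte and macrophage genes moved in both directions. Of 29 tested 10 rose and 2 fell, with a median of 0.81. Marco, a scavenger receptor gene, read 8.83, 8.52, 8.60, 6.67 and 5.49 at 0 Gy and 12.83, 13.22, 12.85, 12.50 and 13.88 at 7 Gy. It rose by 5.44 ± 0.62, 43.3-fold (limma, adjusted p = 2.9e-04), with the 2 lowest values in unirradiated replicates 4 and 5, and by 5.57 without irradiated replicates 1, 2 and 3. Cd5l (4.36), Axl (3.09), Mrc1 (2.14), Adgre1, which encodes F4/80 (2.69) and Cd14 (2.71) rose, as did the Fc receptor genes Fcgr4 (2.10) and Fcgr3 (1.72). The call of Fcgr3 was lost without the weak array and with the slide as a block, and the rise of Cd5l was 3.76 without the weak array.

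Cx3cr1, a chemokine receptor gene of patrolling monocytes, read 9.06, 8.66, 8.54, 6.72 and 8.04 at 0 Gy and 5.62, 5.61, 5.85, 5.87 and 6.16 at 7 Gy, a fall of 2.38 ± 0.41 that was not called without irradiated replicates 1 and 2. Irf8, a transcription factor of monocytes, dendritic cells and B cells, fell by 1.86. Other genes of the patrolling subset, Nr4a1 (-1.05), Ace (-0.97) and Treml4 (-0.63), and Ccr2 of inflammatory monocytes (-0.68), were not called. Csf1r varied little, at 0.17. The mean of the list was lowest on unirradiated replicate 4, at 7.16 against 7.84 to 8.66 on the others of its group.

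Neutrophil genes moved little. Of 26 markers of mature neutrophils 3 rose and 0 fell, with a median of 0.35. S100a8, at 0.08, and Cxcr2, at -0.05, did not pass and change sign with the setting. Padi4, the enzyme that citrullinates histones in neutrophil traps, read 8.43, 8.22, 8.30, 6.88 and 6.82 at 0 Gy and 9.96, 10.08, 10.34, 10.22 and 11.76 at 7 Gy, a rise of 2.74 ± 0.46. Slpi (2.35) and Clec4d (1.27) also rose, Clec4d without a call when the slide was a block. Of 15 granule genes of marrow precursors Prtn3, which encodes proteinase 3, rose by 2.60 ± 0.34 and Chil3 fell by 2.72 ± 0.47. Mpo (-1.44) and Elane (-0.62) were uncalled, and the list median was -0.16. Chil3 was not called without irradiated replicates 1 and 2.

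Among 12 tested genes of eosinophils, basophils and mast cells 4 rose and 2 fell. Cpa3, a mast-cell and basophil protease gene, read 4.22, 4.72, 6.68, 3.82 and 4.36 at 0 Gy and 9.09, 9.0, 8.17, 8.45 and 7.92 at 7 Gy, a rise of 3.77 ± 0.50. Tpsb2, another mast-cell protease gene, rose by 2.02, Hdc, the enzyme that makes histamine, by 1.57, and Gata2 by 1.23. Of the eosinophil genes Il5ra fell by 1.57 ± 0.27 and Ccr3 by 1.32. With the slide as a block 2 rose and 1 fell, the calls of Hdc, Gata2 and Ccr3 being lost. The list had 3 rises and 1 fall without the weak array, 4 and 0 without irradiated replicates 1 and 2, where Il5ra was not called, and 1 and 0 without replicates 1, 2 and 3. The defining genes Epx and Mcpt8 were below the background filter, so the presence of these cells was not shown by them.

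Red-cell genes fell in 15 of 31 tested, 3 rose, and the median was -1.19. Slc4a1, the anion exchanger band 3, read 14.81, 14.96, 14.98, 16.93 and 15.37 at 0 Gy and 11.83, 11.72, 12.91, 13.30 and 12.20 at 7 Gy. It fell by 3.02 ± 0.46, 8.09-fold (limma, adjusted p = 0.0013). Unirradiated replicate 4 was the highest array, and every irradiated array lay below every unirradiated one.

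Of other membrane and skeleton genes Epb42 fell by 3.13, Add2 by 3.18 and Ank1 by 2.73, and Ahsp, the chaperone of alpha globin, fell by 2.35. The 3 rises were early or shared regulators: Gfi1b (1.89), Epor, the erythropoietin receptor (1.67), and Tal1 (1.65). Klf1 (0.20) and Gata1 (0.79) were not called. Without unirradiated replicates 4 and 5 the falls numbered 9, without irradiated replicates 1 and 2 they numbered 5, and without replicates 1, 2 and 3 they numbered 2. The list medians were then -0.82, -1.24 and -1.23, against -1.19 with all arrays. Slc4a1 was called without unirradiated replicates 4 and 5 and without irradiated replicates 1 and 2. It was not called without irradiated replicates 1, 2 and 3. Of 12 genes of heme synthesis 1 fell: Slc25a37, the mitochondrial iron importer mitoferrin, at -3.34 ± 0.42. Fech, which inserts the iron, was at -1.55, not called as tested but called with the slide as a block.

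Platelet genes leaned upward. Of 25 tested 9 rose and 0 fell, and 24 of the 25 differences were above 0, with a median of 1.20. P2ry1, an ADP receptor gene, read 6.50, 6.73, 6.54, 6.02 and 5.68 at 0 Gy and 7.66, 7.78, 8.31, 8.45 and 8.41 at 7 Gy, a rise of 1.83 ± 0.30. P2ry12 (1.53), Selp (1.66), Tubb1 (1.44), Thbs1 (1.43) and Gp6 (1.19) rose. Pf4, platelet factor 4, at 1.67, and Itga2b, at 1.12, were not called. The count was 15 without irradiated replicates 1 and 2, 2 without replicates 1, 2 and 3, and 4 with the slide as a block. The median was 1.54 without irradiated replicates 1 and 2 and 1.55 without replicates 1, 2 and 3. The calls of Gp6 and Selp were lost with the slide as a block and without the weak array.

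**Figure D3:**
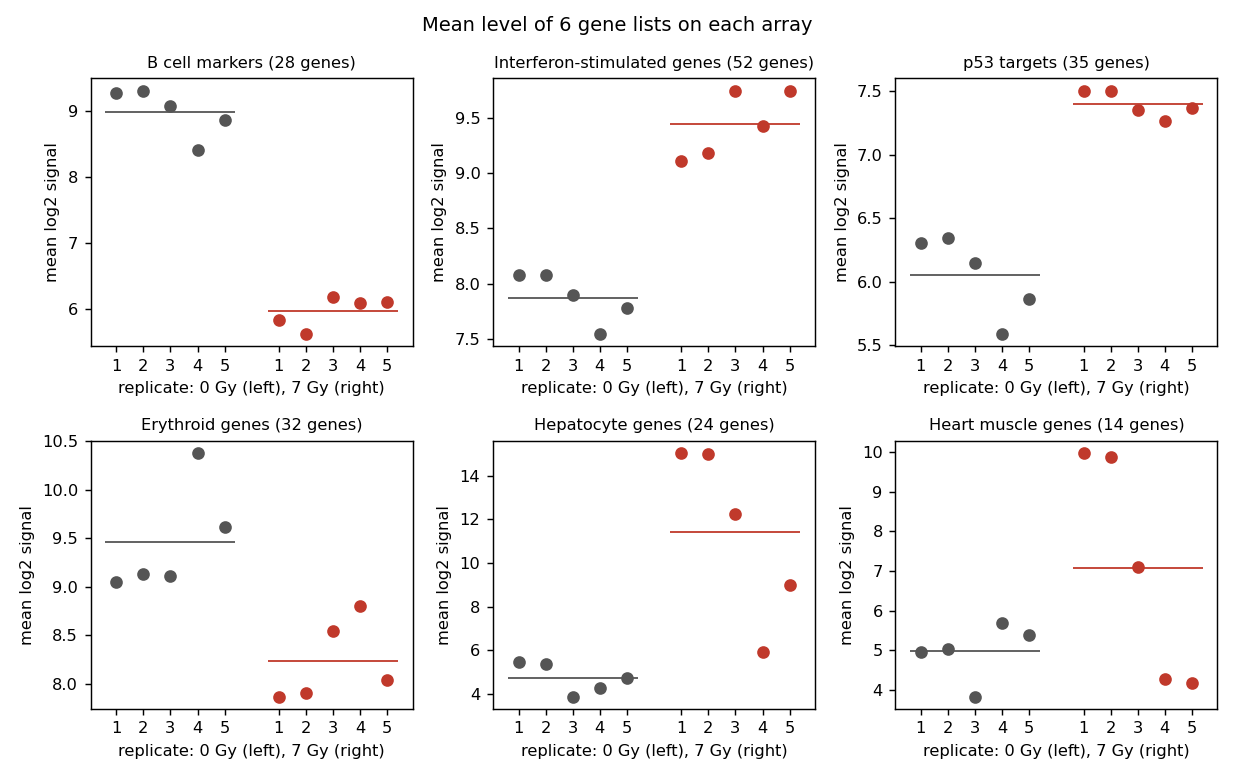
Mean log2 signal of the measured genes of 6 lists on each array, unirradiated replicates 1 to 5 in grey on the left of a panel and irradiated ones in red on the right, with lines at the group means. B-cell, interferon-stimulated and p53-target means separate the doses on every array, and hepatocyte means at 7 Gy run from 5.94 to 15.03.

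Genes of the cell cycle and DNA replication fell in 5 of 33 tested and rose in 1, with a median of -0.68 over 42 measured genes. Ccnb2, cyclin B2, read 8.66, 8.56, 8.78, 10.53 and 10.06 at 0 Gy and 6.53, 6.52, 7.61, 7.53 and 6.69 at 7 Gy, a fall of 2.34 ± 0.45. It was highest on unirradiated replicate 4, as the red-cell genes were, and next on the weak array. Ccna2 fell by 2.32, Uhrf1 by 1.97, Mcm2 by 1.56 and Cdt1 by 1.27, the last not called without the weak array or with the slide as a block. Espl1, separase, rose by 2.14 from values near background and was not called with the slide as a block. Mki67, at -0.61, and Mcm5, at -0.70, were not called. Without unirradiated replicates 4 and 5 the falls numbered 10, and without irradiated replicates 1 and 2 they numbered 1. The list medians were then -0.65 and -0.61.

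Of 32 DNA repair genes tested 2 fell and 0 rose, with a median of -0.26. These were Mutyh, a glycosylase gene of base excision repair, at -2.28 ± 0.47, and Parp1, at -1.70. Mutyh was not called with the slide as a block (adjusted p = 0.0122), nor without any 1 of 4 arrays, unirradiated replicate 1 and irradiated replicates 1, 2 and 5. Without irradiated replicates 1 and 2 together 0 of the repair genes were called. The falls numbered 3 without the weak array and 7, with a median of -0.46, without unirradiated replicates 4 and 5. Brca1 was below the background filter. In the Bcl2 family, which sets the threshold of apoptosis, 4 of 12 tested rose and 1 fell. Besides Bax and Bbc3 these were Bad (1.34) and Bok, both proapoptotic. Bok was well above background on no unirradiated array and on 4 of 5 irradiated ones. Its mean was at least 3.11-fold higher at 7 Gy, with overlapping groups. The difference of Bok was 2.65, or 1.91 without irradiated replicates 1 and 2, where it was not called. Its call was lost with the slide as a block (adjusted p = 0.0194) and with any 1 of 7 arrays left out, all but the weak array and irradiated replicates 4 and 5. The call of Bad was lost without the weak array. The antiapoptotic Bcl2l1, highly expressed in red-cell precursors, fell by 2.28 ± 0.42. Its call was lost without irradiated replicates 1 and 2, where the family had 2 rises and 0 falls. The fall was 1.66, and called, without unirradiated replicates 4 and 5. Bcl2l1 read 15.13, 14.98, 15.20, 16.76 and 16.55 at 0 Gy and 12.97, 12.96, 13.72, 13.86 and 13.69 at 7 Gy. Bcl2, at 0.20, and Mcl1, at -0.05, did not pass.

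Cytokine genes changed in 4 of 22 tested. The chemokine genes Ccl9 (2.59 ± 0.36), Ccl6 (2.00) and Ccl2, which attract myeloid cells, rose, and Ltb, lymphotoxin beta of lymphocytes, fell by 1.62 ± 0.34. Ltb was not called with the slide as a block (adjusted p = 0.0146), nor with any 1 of 7 arrays left out, all but unirradiated replicates 4 and 5 and irradiated replicate 4. Ccl2 was not well above background on any unirradiated array and was at least 2.54-fold higher. Ccl9 read 9.92, 10.01, 9.92, 8.51 and 9.03 at 0 Gy and 11.71, 11.75, 12.05, 12.17 and 12.68 at 7 Gy. Il1b (-0.62), Tnf (-0.13), Ifng (0.66) and the interferon-induced chemokine gene Cxcl10 (1.91) were not called, and Il6 was below the background filter. Among 19 innate sensing genes Lbp, which passes lipopolysaccharide to CD14, rose by 4.44 ± 0.44, and Cd14, Ly96 (1.87) and the inflammasome adaptor gene Pycard (2.28) rose with it. Tlr1 fell by 2.33 ± 0.35, Tlr4 was at 0.87 and Nfkbia varied little.

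Genes chosen for their test values or size outside the lists included 4 rises. Aspa rose by 3.98 ± 0.31, Il18bp, a soluble inhibitor of interleukin 18, by 4.37 ± 0.35, the junction gene Jam2 by 3.83 ± 0.31, and Anxa8, an annexin gene, by 4.63 ± 0.39. Anxa8 read 2.99, 2.27, 2.10, 2.72 and 3.16 at 0 Gy, where 0 of 5 arrays were well above background, and 7.97, 7.85, 7.56, 6.31 and 6.69 at 7 Gy, so its signal was at least 11.6-fold higher. Aspa read 3.59, 3.59, 3.68, 2.58 and 3.25 against 7.29, 7.37, 7.15, 6.87 and 7.91. The transcript D130062J21Rik fell by 3.70 ± 0.30. All 5 were called without irradiated replicates 1, 2 and 3.

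The largest rises described here were in genes of liver secretion, and they differed widely between irradiated mice. Of 24 hepatocyte genes tested 14 rose and 0 fell, with a median of 7.11. Their mean on irradiated replicates 1 to 5 was 15.03, 15.00, 12.23, 5.94 and 9.01, against 3.88 to 5.46 at 0 Gy. Alb, albumin, read 5.88, 5.91, 3.58, 2.64 and 2.89 at 0 Gy and 16.96, 17.17, 14.03, 6.93 and 10.51 at 7 Gy, a difference of 8.94 ± 1.73 (limma, adjusted p = 0.0041). Serpina1a, alpha-1 antitrypsin, differed by 9.45 ± 1.78 and Gm8893, which could share its signal, by 9.07 ± 1.69. All 3 lost their calls without unirradiated replicate 4. With 1 array left out at a time the difference of Alb ran from 7.93 without irradiated replicate 2 to 10.49 without irradiated replicate 4. Without the weak array the calls numbered 7 of 24. Without irradiated replicates 1 and 2 they numbered 2, without replicates 1, 2 and 3 they numbered 1 with a median of 2.79, and without unirradiated replicates 4 and 5 they numbered 0.

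Heart muscle genes were high on irradiated replicates 1, 2 and 3 but not on 4 and 5, and 0 of 14 passed the test. Their mean was 9.98, 9.87, 7.11, 4.28 and 4.16 on irradiated replicates 1 to 5 and 3.83 to 5.69 at 0 Gy, and 8 defining genes, Ckm and Actc1 among them, were below the background filter. Myh6, cardiac myosin, read 6.88, 6.89, 2.89, 8.21 and 7.30 at 0 Gy and 14.98, 14.86, 11.11, 3.79 and 3.79 at 7 Gy, which overlap.

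Acute-phase genes, which liver makes in inflammation, rose in 9 of 14 tested with a median of 6.40. The calls numbered 7 without the weak array, 6 without irradiated replicates 1 and 2, 5 without replicates 1, 2 and 3, and 4 without unirradiated replicates 4 and 5. The median fell to 4.51 without irradiated replicates 1 and 2 and to 3.16 without replicates 1, 2 and 3. Saa2, serum amyloid A2, read 1.92, 3.00, 1.64, 2.49 and 3.62 at 0 Gy, where 0 of 5 arrays were well above background, and 17.12, 16.86, 14.93, 8.17 and 12.27 at 7 Gy. Its mean of 13.87 at 7 Gy gave a difference of group means of at least 1158-fold. Irradiated replicates 4 and 5 lay below that mean. The fitted difference was 11.33 ± 1.42 (limma, adjusted p = 4.9e-04), or 7.69 on irradiated replicates 4 and 5 alone, where it was called. Saa1 read 8.71, 8.78, 9.68, 9.76 and 8.94 against 16.75, 16.66, 14.91, 13.77 and 14.64, a rise of 6.17 ± 0.56. Hpx, hemopexin, rose by 9.30 ± 1.49, a call lost without unirradiated replicates 4 and 5, and Saa3 by 7.09, or 6.31 without the weak array, while Hp, haptoglobin, at 2.34, was not called. For Saa2, Hpx, Alb and the hepatocyte mean alike, irradiated replicates 1 and 2 were highest, then 3, 5 and 4, and the part of liver RNA in these rises was not tested.

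Complement genes rose in 9 of 15 tested and fell in 1, with a median of 2.92. Some of these proteins are made by macrophages and others by liver. Of the macrophage group C1qa read 8.55, 8.87, 9.0, 7.58 and 4.29 at 0 Gy and 11.62, 11.97, 11.81, 11.62 and 12.68 at 7 Gy, a rise of 4.28 ± 0.77 with nearly level irradiated arrays that was not called without irradiated replicates 1 and 2. The rise was 4.38 without those replicates. The weak array was by far the lowest, and without it the rise was 3.44. C1qc rose by 4.03, or 3.40 without that array, and C1qb by 2.58. Cfb, factor B, read 5.84, 5.81, 6.01, 4.63 and 6.34 against 12.86, 12.85, 11.13, 9.76 and 11.26, a rise of 5.84 ± 0.58, with irradiated replicates 1 and 2 highest. C3 read 9.5, 9.51, 9.30, 7.79 and 9.32 against 16.12, 16.02, 13.67, 9.66 and 11.08, a difference of 4.23 that was not called alone but was with the slide as a block. Cd55, which protects cells from complement, fell by 3.00 ± 0.30.

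Genes of the basic machinery gave few calls. Of 51 respiratory-chain genes tested 2 rose, Ndufs4 (1.5 ± 0.27) and Cox5a (1.44), and the median of 0.92 fell to 0.29 without irradiated replicates 1 and 2. The list mean was 12.03 and 11.95 on those replicates and 10.58 to 10.76 on the other irradiated arrays, and the part of liver and heart RNA was not tested. Proteasome subunits gave 0 calls of 18, with 30 of 31 above 0 and a median of 0.80, or 0.48 without those replicates. Ribosomal protein genes varied so little that 4 of 76 were tested, with 0 calls and a median of -0.22.

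Whether dose acted differently in the mice labelled WT and Il10-/- was tested as an interaction over all 20 arrays. Of 16498 features limma called 0, and 1232 had an unadjusted p below 0.05. It also called 0 with each array left out in turn, with the slide as a block and under the other scalings run. At 5 mice a group, differences between genotypes in the genes described here were therefore not detected, which does not show that they respond alike.

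**Figure D4:**
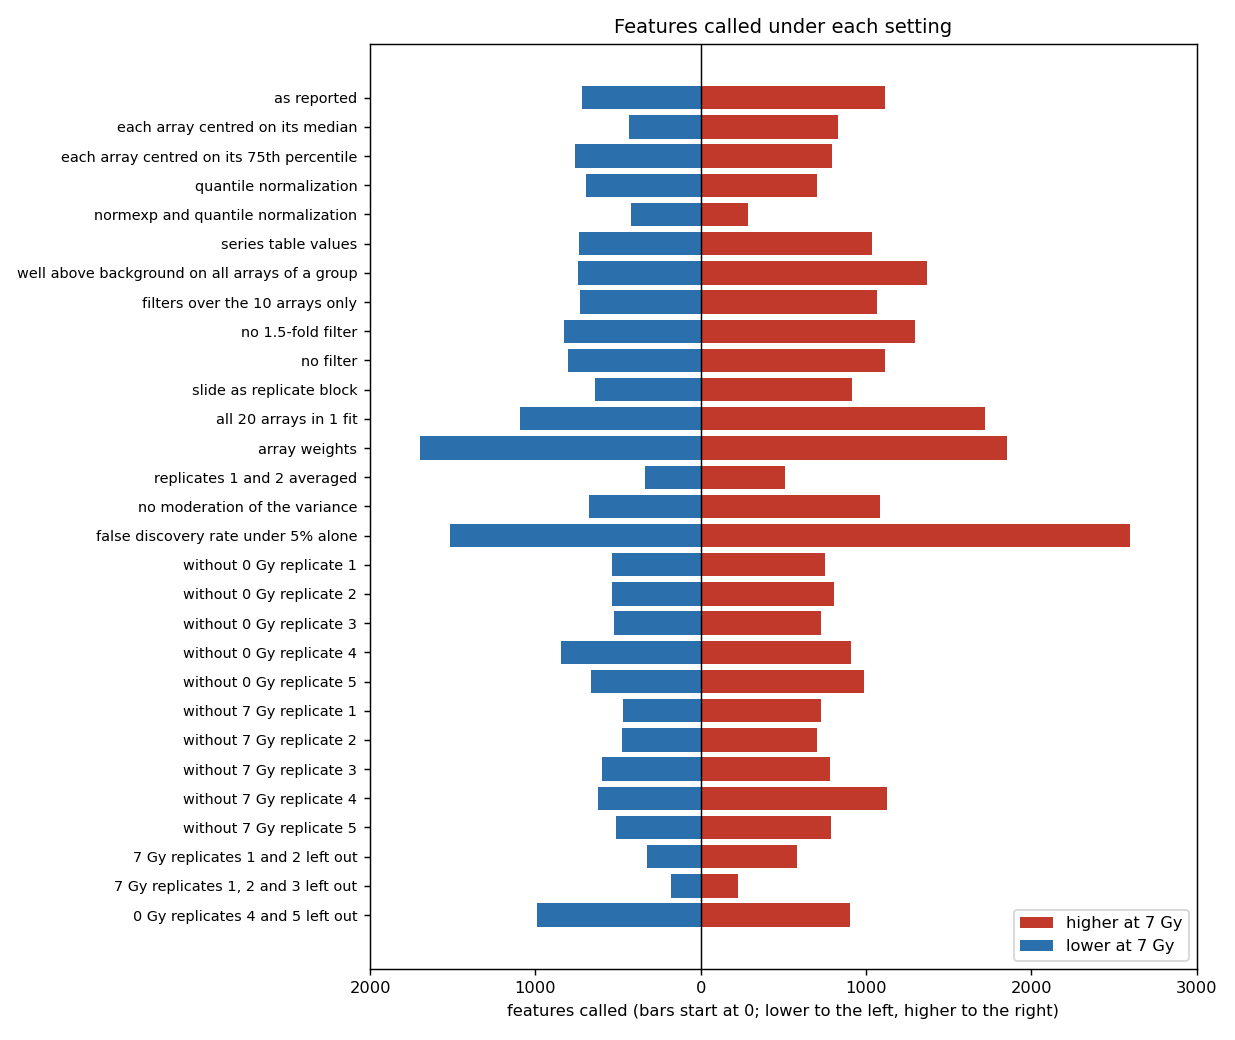
Number of features called higher (red, to the right) and lower (blue, to the left) at 7 Gy as reported and under every alternative setting, with bars starting at 0. Counts run from 403 without irradiated replicates 1, 2 and 3 to 4115 at a false discovery rate under 5% alone, against 1832 as reported.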

How the data were processed

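RNA of whole blood was hybridised to 1-colour Agilent mouse arrays. The authors deposited the Feature Extraction text of each array, whose processed intensity per spot is background-corrected and not normalized between arrays, with probe positions in mm9. Its version is 12.0.2.2 in the file headers and 10.7 in the methods. The authors also deposited a table of log2 values, used as an alternative.

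Intensities were taken to log2, non-uniform outlier spots left out and repeated spots averaged over 39429 non-control probes. Each array was then shifted by its median log2 distance from replicate 3 of the unirradiated Il10-/- mice, which matches the constants of the deposited table to within 0.0085. Over the 20 arrays, a probe was dropped where its spot was an outlier or lacked a significant signal in at least 25% of them, leaving 22988, and those at least 1.5-fold from their median on 20% or more of the arrays were tested, 16498 features. This follows the methods. The 10 arrays were fitted in limma 3.58.1 (R 4.3.3) with moderated variance and Benjamini-Hochberg adjustment over all features, and tables were made in Python 3.11.15. A feature was called at p below 0.001 and a rate under 10%. Steps were tested on simulated data. Symbols come from the array files and were updated through RefSeq for 28330 of 29785 probes with an accession. No mm9 annotation was used here, so exon or intron positions of probes are not given.

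A single value per array was compared by an exact permutation test. A signal not well above background on any array of a group is given as a bound, against the lowest signal well above background on each array or the probe's own, whichever is higher. Such a bound concerns the means of the groups and not each array. The number of arrays and the signal over background limit precision. The 5 replicate numbers mark 5 slides, each with 1 array of every group and 1 scan, as the file headers show. Deviations of same-numbered arrays from their group means correlated by 0.0681 to 0.329, and the text says where the block changes the call of a gene it names. Left-out arrays, scalings, filters, weights and thresholds were tried as alternatives. Fits with fewer arrays can detect less, so a lost call need not mean a smaller difference.

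Members and gene lists were chosen with earlier results of these data known. Named genes are the 10 rises and 10 falls with the largest test values and the 5 of each with the largest differences, among called probes with separate groups that were well above background on all arrays of the brighter group, then 2 anchor genes and the largest called rise and fall of each list, and Il10. Other list members were named from all called or well-known members after their values were seen. Some genes are not reported here, though they count in the totals of their lists.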

Additional observations from a re-analysis of the deposited data

Results flagged for a closer look

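In 232 groups of 5 values, of named genes and of list means, 17 had 1 array whose distance from the nearest other exceeded 0.71 of the group's range, which chance alone gives about 1 group in 20. Of these 10 were unirradiated replicate 4. It was lowest for Fcer2a (7.20, others 8.40 to 8.74), Btla (8.14, others 8.91 to 9.03), H2-Ab1 (12.64, others 13.60 to 13.96), Chil3 (9.74, others 11.69 to 12.03), Il1b (8.82, others 9.75 to 10.12) and C3 (7.79, others 9.30 to 9.51). It was also lowest for the mean of natural killer genes (6.62, others 7.24 to 7.47) and of eosinophil, basophil and mast cell genes (5.79, others 6.27 to 6.45). It was highest for Slc4a1 (16.93, others 14.81 to 15.37) and Ndufs1 (9.97, others 8.68 to 9.02). The same array was thus low in several leukocyte genes and high in Slc4a1, a red-cell gene.

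Irradiated replicate 5 was highest for Phlda3 (11.52, others 10.88 to 11.04), Padi4 (11.76, others 9.96 to 10.34) and Prtn3 (7.65, others 6.39 to 6.71), and irradiated replicate 3 for Ifit3 (11.23, others 10.19 to 10.39). Unirradiated replicate 3 was lowest for Myh6 (2.89, others 6.88 to 8.21) and for the mean of precursor granule genes (6.74, others 6.85 to 6.88). Unirradiated replicate 5, the weak array, was lowest for Espl1 (2.46, others 3.75 to 4.20).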

How the results depend on the processing

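Of 64 named probes called, 35 kept the call under each of the 28 alternatives that tested them. Some alternatives, normexp among them, filtered out part of the named probes. With each array left out in turn 54 kept the call, and 0 changed sign in any alternative that tested them. Against 1832 features (1115 higher, 717 lower), centring on the array median gave 431 falls, quantile normalization 705 rises, normexp 704 features (285 and 419), 1 fit of all 20 arrays 2816 (1722 and 1094), array weights 3548 (1852 and 1696), averaging replicates 1 and 2 850 (510 and 340), and a false discovery rate under 5% alone 4115 (2599 and 1516). The slide as replicate block gave 1558 (916 and 642). Leaving out 1 array gave 1178 to 1755 (702 to 1124 rises, 470 to 844 falls). Settings chosen after seeing the data gave 904 (581 and 323) without irradiated replicates 1 and 2, 403 (223 and 180) without 1, 2 and 3, and 1893 (905 and 988) without unirradiated replicates 4 and 5. The share of rises among calls ran from 40.5% (normexp) to 65.9% (array median), against 60.9%.

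Sign changes concerned uncalled genes alone. Without irradiated replicates 1, 2 and 3 the values were Myh6 -2.64, Tnnt2 -0.23, Sdha -0.45, Cxcr2 0.41, Ltf 0.37 and Mcl1 0.040, and without 1 and 2 Myh6 -0.20, Sdha -0.40, Cxcr2 0.17 and Ltf 0.47. Without unirradiated replicates 4 and 5 they were Tap1 -0.11, S100a8 -0.30, Ltf 0.13 and Bcl2 -0.30. Array weights gave S100a8 -0.51, Ltf 0.33, Mki67 0.047, Bcl2 -0.041 and Sdha -0.22. Averaging replicates 1 and 2 gave Cxcr2 0.21, Ltf 0.048 and Mcl1 0.079. Scalings gave S100a8 -0.060 (75th percentile), Cxcr2 0.033 and Mcl1 0.035 (median), Cxcr2 0.047 (normexp), Sdha -0.030 (quantile) and Ltf 0.021 (deposited table). With 1 array left out S100a8 ran from -0.12 to 0.29, Cxcr2 from -0.26 to 0.16, Ltf from -0.49 to 0.24, Bcl2 from -0.12 to 0.38 and Mcl1 from -0.23 to 0.10. The causes were not tested.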
